A study of Mus musculus with 8 samples.

Results

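The extracellular matrix genes of fibroblasts were examined as targets of 4 reprogramming factors in mouse embryonic fibroblasts (MEFs). The set holds 35 of the 21938 protein-coding genes on the placed mouse chromosomes. It was drawn up as a list of genes for collagens, fibronectin and elastic fibre proteins, crosslinking enzymes, matricellular proteins, proteoglycans, and matrix metalloproteinases with their inhibitors. A peak was assigned to a gene when its summit lay in the gene body or within 50 kb of its first annotated start site. This stretch is called the gene's window. All 35 genes were found in the annotation, and their joined windows covered 4.36 Mb.

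Binding was measured by CUT&Tag, in which an antibody brings the Tn5 transposase to a chromatin protein so that the DNA around it is cut and tagged. The antibody was against Flag, the tag on the delivered factor, and cells were taken at day 3 of reprogramming with 100000 cells per sample. The native factors Nanog, Oct4, Sox2 and Nr5a2 were set beside NanogBiD, Oct4BiD, Sox2BiD and Nr5a2BiD, in which the BRG1-interacting domain of SS18 is joined to the N-terminus. BRG1 is an ATPase of the BAF chromatin remodelling complex. The MEFs came from embryos of OG2 males, which carry a GFP reporter driven by Oct4 regulatory sequence, and 129 females. Factors were delivered by pMXs retrovirus, and cells were kept in the reprogramming medium iCD3. All 8 groups share these cells and this medium. The titles name 1 factor each and leave unsaid which other factors the same cells received. Each group holds 1 library, and there was no library without a Flag-tagged factor. Signal unrelated to the tagged factor therefore cannot be told apart from binding at a site found in every library.

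Fibroblasts secrete the collagens, fibronectin, elastic fibres and proteoglycans that make up connective tissue, and they remodel it with metalloproteinases. Fibrillar collagens form the tensile fibres, basement membrane and beaded collagens form sheets and fine networks, and lysyl oxidases crosslink collagen and elastin. Matricellular proteins such as Sparc and Tnc regulate cell contact with the matrix. The matrix programme is part of fibroblast identity, and cells that are reprogrammed to pluripotency leave that identity behind. AP-1, TEAD and RUNX factors are transcription factors active at fibroblast enhancers.

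The 8 peak lists held 661009 peaks, from 54794 in Oct4 to 120594 in Sox2BiD. Read totals are not part of these lists and were not used here, and the lowest summit height ranged from 6 to 10 tags. Counts are therefore given per 10000 peaks of the same library, with exact intervals at the 95% level that cover counting error only. The promoters of 10 fibroblast and 10 epithelial marker genes were also examined. Peaks there describe open or bound chromatin and do not measure expression or cell identity. Between 5 and 10 of the fibroblast markers had a summit within 2 kb of their first start site in a library, against 0 to 7 of the epithelial markers. Fibroblast markers were the more frequent in 7 libraries, and in native Nr5a2 both lists had 7 of 10. In Oct4BiD the 5 of 10 fibroblast markers were no more than the share over all protein-coding genes, 50.3%.

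The sequences that follow are examples of matrix regions, chosen by the libraries that had a peak there and by a motif match. All are read from the plus strand of GRCm38 (mm10) and span 50 bp to each side of a summit, and capitals mark the motif letters. The motifs, searched on both strands, were TGACTCA for AP-1, CATTCCA and CATTCCT for TEAD, AACCACA for RUNX, ATGCAAAT for the octamer of Oct4, CCATTGTT for SOX, CAAGGTCA and CAAGGCCA for NR5A and GCCATTA for NANOG. A match is a description of the letters and not evidence of a site in use. Among the 25 matrix regions with peaks in all 8 libraries, 4 (16%) held an AP-1 match within 50 bp of a summit in at least 1 library. This was near the 17.7% of 4134 such regions in the windows of all protein-coding genes. TEAD letters were in 6 of the 25, 24%, against 18.8%. The 3 regions with the AP-1 match in most libraries are shown first because every factor and form had a peak there. They lay upstream of Col6a2, a beaded collagen (chr10:76634157-76634257, intergenic, 10.6 kb upstream of the start), in an intron of Col4a2, a basement membrane collagen (chr8:11392839-11392939, 80.1 kb downstream of the start), and in an intron of the metalloproteinase inhibitor Timp2 (chr11:118346909-118347009, 8.78 kb downstream). The match lay within 50 bp of the summit in 4, 3 and 2 of the 8 libraries.
Col6a2: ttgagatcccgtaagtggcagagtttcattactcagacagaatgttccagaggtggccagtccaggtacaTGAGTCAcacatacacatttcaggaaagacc
Col4a2: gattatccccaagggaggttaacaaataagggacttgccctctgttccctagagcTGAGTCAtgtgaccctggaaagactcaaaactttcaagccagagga
Timp2: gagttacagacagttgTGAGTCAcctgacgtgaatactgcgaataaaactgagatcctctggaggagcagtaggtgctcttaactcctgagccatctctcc

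For each factor, the strongest matrix region with peaks in both forms of that factor, in no library of another factor and with that factor's own motif is shown next. The Nanog region lay 5.84 kb upstream of Col8a1, a short-chain collagen (chr16:57760531-57760631, intergenic). The Oct4 region lay in an intron of Fbn1, the fibrillin of elastic microfibrils (chr2:125376909-125377009, 131.0 kb downstream of the start). The Sox2 region lay in an intron of Col5a2, a fibrillar collagen (chr1:45428814-45428914, 74.4 kb downstream). The Nr5a2 region lay 42.4 kb downstream of the start of Bgn, the gene of the proteoglycan biglycan, in an intron of the neighbouring gene Atp2b3 (chrX:73525905-73526005). The mean score percentile was 33.7 at the Nanog region, 53.9 at the Oct4 region, 82.2 at the Sox2 region and 95.6 at the Nr5a2 region. The match was near the summit in both Nr5a2 libraries and in 1 of the 2 libraries of each other factor.
Col8a1: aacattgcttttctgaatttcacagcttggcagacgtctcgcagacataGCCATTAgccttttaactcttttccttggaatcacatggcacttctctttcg
Fbn1: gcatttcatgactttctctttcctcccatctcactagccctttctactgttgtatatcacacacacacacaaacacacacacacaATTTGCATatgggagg
Col5a2: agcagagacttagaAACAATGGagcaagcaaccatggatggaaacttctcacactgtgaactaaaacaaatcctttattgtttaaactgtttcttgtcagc
Bgn: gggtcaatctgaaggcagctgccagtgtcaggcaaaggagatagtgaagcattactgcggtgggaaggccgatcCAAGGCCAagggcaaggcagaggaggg

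The matrix genes carried more peaks than the average protein-coding gene in every library. Summits at the 35 genes numbered 318 in Nanog, 320 in NanogBiD, 186 in Oct4, 288 in Oct4BiD, 187 in Sox2, 361 in Sox2BiD, 345 in Nr5a2 and 246 in Nr5a2BiD, 2251 in all. Per 10000 peaks these were 43.3 (38.7 to 48.3) in Nanog, 42.2 (37.7 to 47.1) in NanogBiD, 33.9 (29.2 to 39.2) in Oct4, 30.6 (27.2 to 34.4) in Oct4BiD, 32.2 (27.7 to 37.1) in Sox2, 29.9 (26.9 to 33.2) in Sox2BiD, 31.9 (28.7 to 35.5) in Nr5a2 and 32.3 (28.4 to 36.6) in Nr5a2BiD. The Nanog pair was the highest, and the intervals of the other 6 libraries overlapped one another. The interval of native Oct4 also overlapped those of Nanog and NanogBiD. Per Mb of window, the density at matrix genes was 2.18 times that at all protein-coding genes in Nanog and 2.01 times in NanogBiD. The ratio was 1.71 in Oct4, 1.5 in Oct4BiD, 1.74 in Sox2, 1.51 in Sox2BiD, 1.44 in Nr5a2 and 1.5 in Nr5a2BiD, and the lowest bound of any interval was 1.30.

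Per Mb of window, the excess was larger away from promoters. A promoter summit is one within 2 kb of any annotated start site, and the remaining summits are called distal. The distal density at matrix genes was 2.54 times that at protein-coding genes in Nanog, 2.33 times in NanogBiD, 1.81 times in Oct4, 1.53 times in Oct4BiD, 1.76 times in Sox2, 1.62 times in Sox2BiD, 1.52 times in Nr5a2 and 1.58 times in Nr5a2BiD. The promoter density ratio ranged from 1.11 in Sox2BiD to 1.66 in native Sox2 and was below the distal ratio in each library. This ratio also depends on the number of start sites per Mb, which was not matched between the sets. Counted per gene, promoters in native Sox2 were reached at 48.6% of matrix genes, against 18.9% of all protein-coding genes. There the order of promoter and distal excess thus depends on the measure. Promoters held 16.6% to 24.4% of matrix summits, against 20.1% to 28.6% of summits in all protein-coding windows. The share was below that of protein-coding windows in each library, by the widest margin in Nanog, with 16.7% (12.7 to 21.2) against 28.2%. It was closest in native Sox2, with 19.3% (13.9 to 25.6) against 20.1%. The gene body outside the gene's own promoter held 44.7% to 50.8% of matrix summits, and the stretch upstream of the gene 31.3% to 36.8%.

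**Figure D1:**
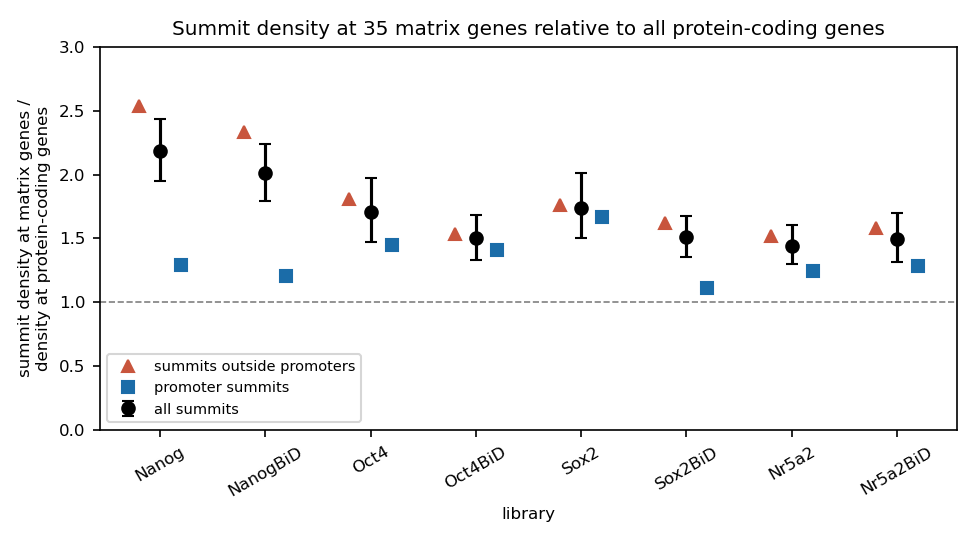
Density of summits at the 35 matrix genes divided by that at all protein-coding genes, for each of the 8 libraries. Circles with bars give all summits with the 95% Poisson interval of the matrix count, triangles distal summits and squares promoter summits, and the dashed line marks equal density. All 8 circles lie above 1, with Nanog at 2.18 and Nr5a2 at 1.44.

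Most single matrix genes shared the excess. Ranked by mean density over the 8 libraries among all protein-coding genes, 29 of the 35 lay above the median gene, and the median percentile of the set was 82.1. Col4a2 (99.7), Col8a1 (99.6) and the crosslinking enzyme Lox (99.4) stood highest. The 6 below the median gene were Col6a3 (48.3), Col6a2 (46.9), Eln (43.9), Col6a1 (37.6), Col11a1 (30.6) and Loxl2 (11.1). Windows of neighbours overlap in part. Col4a1 and Col4a2 start 0.021 kb apart in opposite directions and share 100.022 kb of windows of 164.4 and 186.5 kb, Dcn and Lum share 14.5 kb, and 12 genes have a start site of another protein-coding gene in the window.

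Loxl2, a lysyl oxidase relative that crosslinks collagen, had 1 summit in Nanog, Oct4BiD and Nr5a2, 2 in Nr5a2BiD and 0 in the other 4 libraries. Its window lies over copied sequence. Of 69 stretches of 100 bp taken every 2000 bp along it, 66 (95.7%) had another exact copy on chromosome 14. At no other matrix gene did this share exceed 6%. The authors removed reads of low mapping quality, a step that takes out reads from exact copies, so that the low count at Loxl2 cannot be told apart from a lack of mappable reads.

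The 6 fibrillar collagens had a median density of 7.80 summits per Mb and 10000 peaks, against 5.42 for all protein-coding genes. Col1a1, a chain of type I collagen, had 9 summits in Nanog, 7 in NanogBiD, 5 in Oct4, 11 in Oct4BiD, 4 in Sox2, 8 in Sox2BiD, 12 in Nr5a2 and 10 in Nr5a2BiD. Col1a2, its partner chain, had 8, 8, 3, 11, 9, 14, 5 and 3 summits in the same order of libraries. Both genes thus had summits in all libraries. Per 10000 peaks, Col1a2 was low in Nr5a2 (0.463) and Nr5a2BiD (0.394) and also in native Oct4 (0.548). Col3a1, the chain of type III collagen, had 8, 7, 5, 5, 7, 11, 3 and 3 summits. Col5a2, a chain of type V collagen, had 13, 15, 7, 14, 10, 19, 9 and 4. Col11a1, a chain of type XI collagen best known from cartilage, had 10, 10, 5, 11, 4, 13, 3 and 2 in a window of 240.2 kb and was the sparsest of the group per Mb. Col5a1 ran the other way, with 27 summits in Nr5a2 and 17 in Nr5a2BiD and 6 to 16 elsewhere. All 6 had a summit within 2 kb of their own first start site in Nanog, Oct4BiD and Sox2BiD.

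The 7 basement membrane, beaded and other collagens had a median density of 9.18. Col4a2, a chain of type IV collagen, had 20 summits in Nanog, 20 in NanogBiD, 11 in Oct4, 14 in Oct4BiD, 14 in Sox2, 22 in Sox2BiD, 26 in Nr5a2 and 19 in Nr5a2BiD. Col8a1 had 23, 22, 18, 20, 12, 19, 10 and 9 in the same order. Col6a1, a chain of the beaded type VI collagen, had 4, 4, 2, 2, 1, 3, 10 and 4. Col4a2 was densely covered in every library, Col8a1 was low in the Nr5a2 pair, and Col6a1 was sparse except in native Nr5a2. The remaining 4 genes of the group, Col4a1, Col6a2, Col6a3 and Col12a1, had between 33 and 111 summits over the 8 libraries. The shared promoter of Col4a1 and Col4a2 had a summit within 2 kb in Oct4BiD alone, although their windows held 100 and 146 summits.

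Fibronectin and the elastic fibre proteins, 5 genes, had a median density of 6.55. Fbn1 had 30, 31, 10, 17, 17, 29, 22 and 19 summits from Nanog to Nr5a2BiD, the most of any matrix gene, in a window of 257.4 kb. Fn1, the gene of fibronectin, had 7, 6, 5, 5, 8, 9, 5 and 3. Fbln5, a fibulin needed for elastic fibre assembly, had 10, 11, 8, 12, 6, 10, 10 and 9, an even spread. Eln, the gene of elastin, had 3, 3, 2, 4, 1, 1, 10 and 9, so that 19 of its 33 summits were in the Nr5a2 pair. Among the 3 crosslinking enzymes, Lox had 12, 10, 9, 9, 7, 8, 10 and 7, and Loxl1 had 55 in all.

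The matricellular proteins, 5 genes, had the highest median density of the 7 role groups, 10.01. Sparc, which binds collagen and calcium, had 10, 9, 4, 10, 5, 10, 14 and 10 summits. Postn, the gene of periostin, had 5, 7, 6, 6, 2, 9, 5 and 4 and was the sparsest of the group. Tnc, Thbs1 and Thbs2 had 65 to 86 in all. The 4 proteoglycans had the lowest median density, 6.24. Dcn, the gene of decorin, which binds collagen fibrils, had 7, 7, 4, 7, 3, 7, 2 and 1 summits. Vcan, the gene of the large proteoglycan versican, had 7, 6, 5, 12, 5, 16, 4 and 3. Bgn had 5, 7, 3, 3, 1, 3, 11 and 8. Dcn and Vcan were low in the Nr5a2 pair and Bgn was high in it. Among the 5 metalloproteinases and inhibitors, with a median of 9.26, Timp3 had 12, 11, 7, 9, 4, 7, 11 and 6 summits and Timp1 had 5, 4, 3, 7, 2, 8, 5 and 5. Mmp14, a membrane-bound collagenase, had 7, 7, 2, 6, 1, 9, 12 and 5. Mmp2 and Timp2 had 58 and 65 in all.

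**Figure D2:**
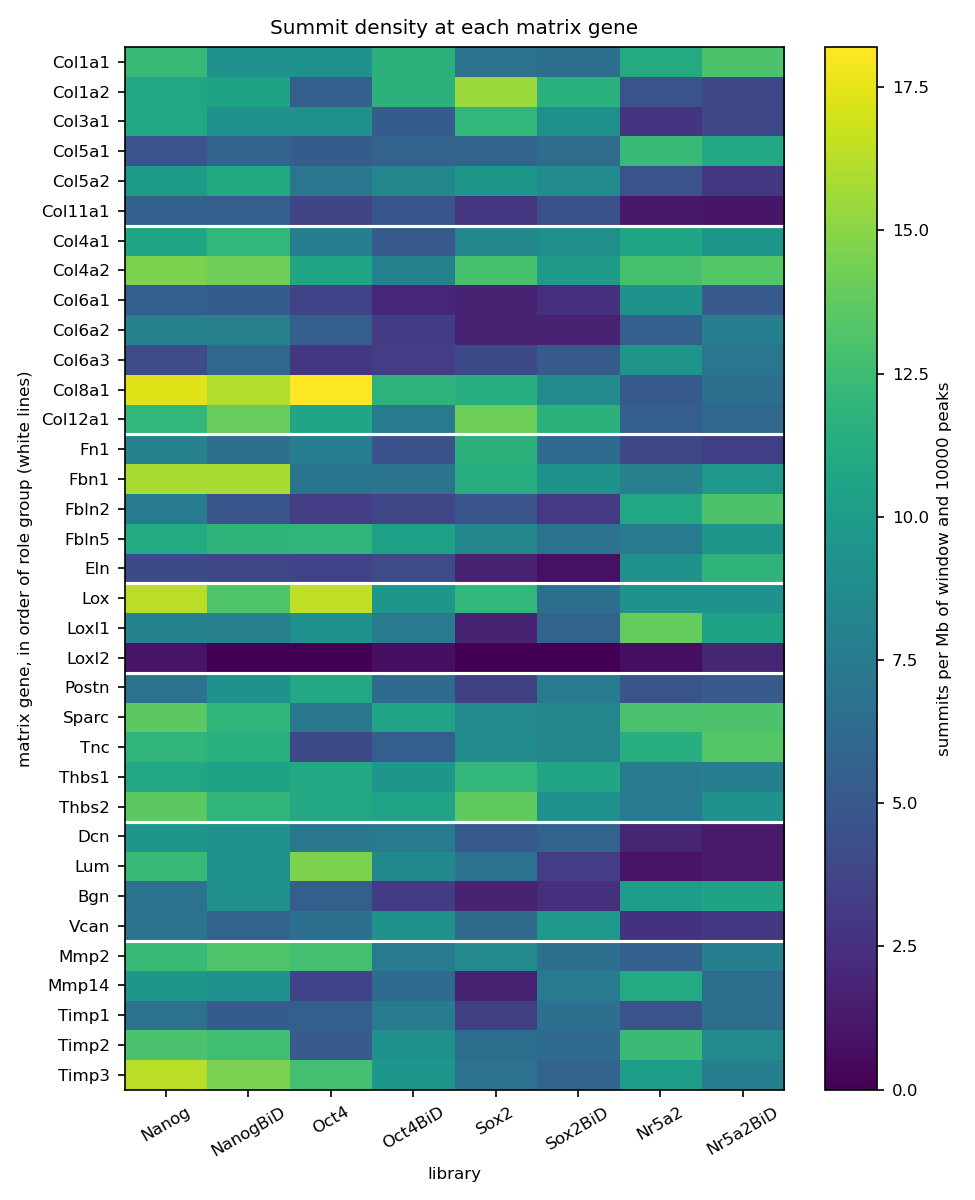
Summits per Mb of window and 10000 peaks (colour) for the 35 matrix genes (rows, ordered by role group, with white lines between groups) in the 8 libraries (columns). Col8a1 and Fbn1 are bright in the Nanog columns, Loxl2 is dark throughout, and Dcn, Lum and Vcan are dark in the 2 Nr5a2 columns.

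Gene lists next to the matrix set were counted in the same way. The fibroblast matrix genes had a median density of 7.81. The 12 matrix receptors, integrins and related genes, had a median density of 8.65, and the 14 enzymes and chaperones of collagen processing 6.76. The summed density of the receptors was above that of the fibroblast matrix genes in each library, with 10.5 against 9.93 in Nanog. In Nr5a2 it was 9.04 against 7.32. The 17 matrix genes of cartilage and epithelia had 5.66, close to the 5.42 of all protein-coding genes. The summed density of the cartilage and epithelial list was below that of the fibroblast matrix genes in each library, with the widest gap in Nanog, 5.36 against 9.93, and the narrowest in Nr5a2, 7.17 against 7.32. The 10 fibroblast markers had a median density of 7.95, so that a density above that of all protein-coding genes was not particular to the matrix genes.

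Promoters of the matrix genes were reached more often than those of protein-coding genes at large in each library. A summit within 2 kb of the gene's own first start site was present at 26 of 35 matrix genes in Nanog, where the share over all protein-coding genes was 45.8%. The counts were 27 in NanogBiD against 49% of all genes, 20 in Oct4 against 33.5%, and 27 in Oct4BiD against 50.3%. They were 17 in Sox2 against 18.9%, 22 in Sox2BiD against 45.9%, 25 in Nr5a2 against 56.4% and 19 in Nr5a2BiD against 46.8%. As shares of the 35 genes these ran from 48.6% in Sox2 to 77.1% in NanogBiD and Oct4BiD. The margin was widest in native Sox2 and narrowest in Nr5a2BiD, where 54.3% stood against 46.8%. At 6 genes, Col3a1, Col5a2, Fn1, Fbln5, Lox and Timp1, the promoter had a summit in all 8 libraries. This is 17.1% of the set, near the 13% over all protein-coding genes. Bgn and Loxl2 had none in any library.

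The promoter peaks of these 6 genes were of middling to high score. The score percentile of a peak is its rank by score within its own library, with 100 as the strongest. Averaged over libraries it was 78.01 for the Lox promoter, 70.1 for Fn1, 67.5 for Fbln5, 51.0 for Col5a2 and 49.3 for Col3a1. At Timp1 it was 52.9 over the 7 libraries with a peak at the start site, and native Sox2 had its summit further upstream, within the 2 kb. An octamer match lay within 50 bp of the summit in 7 of the 8 libraries at Fbln5, inside the untranslated part of its first exon, and in 1 library at Col3a1. Promoter sequences from RefSeq (GRCm38.p6, 250 bases before to 50 after the start) were matched for 23 of the 35 genes. The octamer was in 2 of the 23, Col3a1 and Tnc, and in 1.97% of the promoters of 27025 genes. A TEAD match was in 2 of 23, Col3a1 and Timp1, against 10.6% of all, and AP-1 was in 1, Col6a1, against 5.95%. RUNX, SOX, NR5A and NANOG letters were in none of the 23, against 6.09%, 1.22%, 4.48% and 1.92% of all. The stretch upstream of Col3a1 (chr1:45311288-45311537, plus strand, 250 bases) is shown because it held a peak in all libraries and both an octamer and a TEAD match, which begin 148 and 168 bases before the start.
Col3a1: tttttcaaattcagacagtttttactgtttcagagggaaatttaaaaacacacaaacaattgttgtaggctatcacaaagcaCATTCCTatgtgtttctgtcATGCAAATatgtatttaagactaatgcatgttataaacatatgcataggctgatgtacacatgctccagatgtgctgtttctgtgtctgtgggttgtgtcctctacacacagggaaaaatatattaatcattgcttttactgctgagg

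Scores of matrix peaks were ordinary. The median score percentile of matrix summits lay between 46.6 in Oct4BiD and 55.7 in native Sox2. In the windows of all protein-coding genes it lay between 49.7 and 50.9. The matrix genes thus differed in the number of peaks per Mb and little in the rank of the peaks by score. The median height of matrix summits was above that in protein-coding windows in each library. It was 20 tags against 17 in Nanog, 24 against 20 in NanogBiD, 18 against 17 in Oct4 and 21 against 19 in Oct4BiD. It was 23 against 22 in Sox2, 26 against 22 in Sox2BiD, 24 against 22 in Nr5a2 and 23 against 21 in Nr5a2BiD. Ranked by height, the median percentile in Nanog was 63.7 (56.8 to 69.4). A few sites ranked far above the rest. The site 46.2 kb upstream of Sparc, in intergenic sequence, had a peak in all 8 libraries with a mean percentile of 95.03, and it ranked 401 in Nanog, 1547 in Oct4, 762 in Oct4BiD and 770 in Nr5a2BiD. No motif of the 7 searched lay within 50 bp of a summit there. A site 33.0 kb upstream of Fbln5, in an intron of Trip11, ranked 35 in Sox2, 299 in Sox2BiD, 536 in Nanog and 798 in Oct4 and had no peak in the Nr5a2 pair. A site in an intron of Eln, 6.63 kb downstream of the start, ranked 145 in Nr5a2 and 1126 in Nr5a2BiD and had no peak elsewhere. A site in an intron of Postn, 13.7 kb downstream, ranked 855 in Oct4 and 4001 in Oct4BiD and was likewise without a peak of any other factor. These sites were chosen after their values were seen.

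The best-ranked matrix site of NanogBiD lay in intergenic sequence 24.8 kb upstream of Thbs2, the gene of a thrombospondin (chr17:14718973-14719073). It was chosen after its rank was seen. It ranked 57 in NanogBiD, 276 in Nanog, 906 in Sox2, 1370 in Sox2BiD and 26360 in Nr5a2BiD and had no peak in the 2 Oct4 libraries or in native Nr5a2. An AP-1 match lay within 50 bp of the summit in all 5 of its libraries.
Thbs2: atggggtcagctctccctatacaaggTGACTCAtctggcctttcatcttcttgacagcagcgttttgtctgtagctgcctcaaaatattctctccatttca

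Matrix regions of overlapping peaks were shared between factors somewhat more often than other regions, an excess not kept with higher scores or with another way of joining. Overlapping peaks (1 bp or more) from any of the 8 libraries were joined, which gave 842 regions at matrix genes. Peaks of all 4 factors, in either form, were present in 70 of them, 8.31% (6.54 to 10.4), against 5.72% of the 217840 regions in protein-coding windows. At the other end, 58.2% had a single factor, against 69.8%. The difference lay outside promoters, where 5.90% of matrix regions and 2.41% of protein-coding regions held all 4 factors. In promoters the shares were 19.7% and 19.6%. With scores of at least 100 the shares with all 4 factors were 4.97% (3.38 to 7.01) and 4.75%, so that the interval included the protein-coding share. With summits chained within 100 bp in place of overlapping peaks, 1.68% of matrix regions (1.06 to 2.54) and 1.99% of protein-coding regions held all 4 factors.

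**Figure D3:**
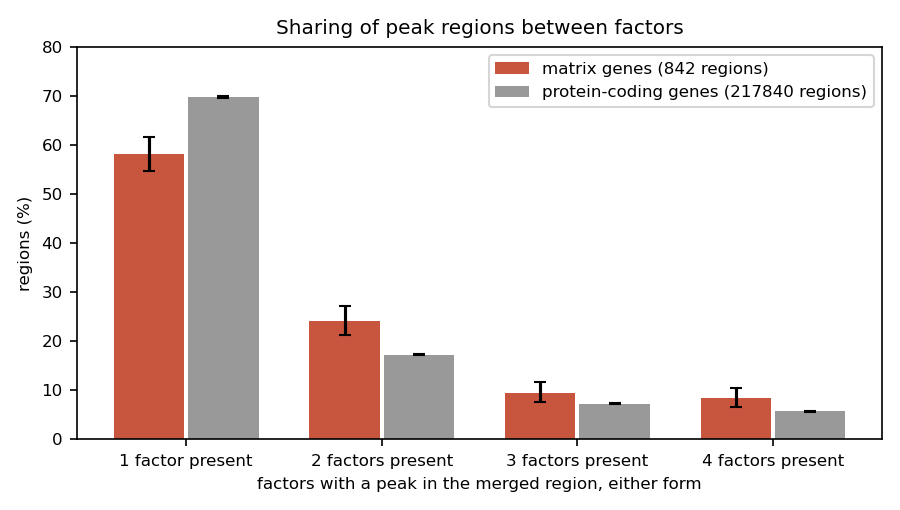
Share of merged peak regions (percent) that held peaks of 1, 2, 3 or all 4 factors, in either form, at matrix genes and at all protein-coding genes, with exact 95% intervals as bars. Matrix regions were less often of 1 factor, 58.2% against 69.8%, and more often of 4 factors, 8.31% against 5.72%.

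Pairs of factors met at matrix regions to different degrees. Of the 368 matrix regions with a Nanog peak, 50.8% also had Sox2, 41.8% Oct4 and 40.5% Nr5a2, near the 47.8%, 39.5% and 39.7% in protein-coding windows. The matrix shares with Nanog were higher than elsewhere for each of the other factors, but this was not particular to Nanog. Of the 372 matrix regions with a Sox2 peak, 50.3% (45.1 to 55.5) also had Nanog, against 36.8%. It was 48.7% (43.1 to 54.4) of the 316 regions with Oct4, against 35.1%, and 41.7% (36.6 to 47.0) of the 357 with Nr5a2, against 29.7%. Shares between Oct4, Sox2 and Nr5a2 were higher too, each with its interval above the protein-coding share. Of matrix regions with Oct4, 40.5% also had Sox2, against 32.6%, and 34.8% (29.6 to 40.3) Nr5a2, against 29.2%. Of those with Sox2, 34.4% also had Oct4, against 28.3%, and 35.5% Nr5a2, against 29.1%. Of those with Nr5a2, 30.8% also had Oct4, against 24.6%, and 36.97% Sox2, against 28.2%. The pair shares were not recalculated with higher scores or chained summits, where the excess with all 4 factors was not kept.

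Motif shares at matrix summits differed by factor. Within 50 bp of the summit, AP-1 letters were found at 10.1% (6.99 to 13.9) of matrix summits in Nanog, 7.5% in NanogBiD, 7.49% in Sox2, 6.93% in Sox2BiD, 5.22% in Nr5a2 and 8.54% in Nr5a2BiD. In Oct4 and Oct4BiD they were at 2.69% and 2.43%, from 5 and 7 summits, lower than in Nanog beyond the counting intervals. These shares lay near those of all protein-coding windows, which were 9.64% in Nanog and 4.41% in Oct4. TEAD letters were at 9.38% to 12.3% of matrix summits in the Nanog, Oct4 and Sox2 libraries and at 5.51% and 3.66% in Nr5a2 and Nr5a2BiD. In all protein-coding windows they were at 10.6% and 8.84% in Nanog and NanogBiD, 6.88% and 5.61% in Oct4 and Oct4BiD, 8.44% and 6.91% in Sox2 and Sox2BiD, and 5.13% and 6.4% in Nr5a2 and Nr5a2BiD. The matrix interval lay above that share in Oct4BiD, 9.38% (6.27 to 13.3), and in Sox2BiD, 9.97% (7.08 to 13.5), and included it in the other 6 libraries. In matrix regions with all 4 factors, TEAD letters were near a summit in 22 of 70, 31.4% (20.9 to 43.6), against 17.8% of such regions in protein-coding windows. AP-1 letters were in 14 of the 70, 20%, against 17.2%. A region with more summits has more chances to hold a match, so shares by region and by summit are not on 1 scale.

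Each factor's own motif was also counted. The octamer was at 14 of 186 matrix summits in Oct4, 7.53% (4.18 to 12.3), and at 22 of 288 in Oct4BiD, 7.64% (4.85 to 11.3). In all protein-coding windows it rose from 3.79% in Oct4 to 8.86% in Oct4BiD. NR5A letters were at 14.2% of matrix summits in Nr5a2 and 12.2% in Nr5a2BiD, against 16.1% and 12.4%. SOX letters were at 2 of 187 in Sox2 and 13 of 361 in Sox2BiD, 1.07% (0.13 to 3.81) and 3.6% (1.93 to 6.08), with overlapping intervals. In all protein-coding windows they were at 1.90% and 3.14%. NANOG letters were at 2.20% in Nanog and 3.44% in NanogBiD, against 1.63% and 2.44%. In windows centred 500 bp to either side, the own motif was at 0.27% to 2.44% of such flanking windows at matrix genes. The Nr5a2-only matrix regions held NR5A letters in 33 of 150, 22%, close to the 21.1% of Nr5a2-only regions elsewhere.

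The comparison of BiD fusion with native factor asked whether the recruiting domain shifted peaks toward or away from the matrix genes. It found no shift that exceeded the counting error. The log2 ratio of matrix summits per 10000 peaks, fusion over native, was -0.04 with NanogBiD (-0.26 to 0.19), -0.15 with Oct4BiD (-0.42 to 0.13), -0.10 with Sox2BiD (-0.36 to 0.16) and 0.02 with Nr5a2BiD (-0.23 to 0.26). The mean over the 4 factors was -0.07 ± 0.07 (SD, n = 4 factors). Over all protein-coding windows it was 0.05 ± 0.06. The intervals reach from -0.42 to 0.26 on the log2 scale, and a shift within them was not detectable with these numbers of peaks. Distal and promoter summits taken apart gave means of -0.07 ± 0.07 and -0.07 ± 0.17. Raw counts moved with the size of the list, from 187 to 361 matrix summits for Sox2 and from 345 down to 246 for Nr5a2.

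By role group, the log2 ratio of every one of the 7 groups had an interval that included 0 for each factor. The furthest from 0 was Oct4BiD over Oct4 at the basement membrane, beaded and other collagens, -0.56 (-1.14 to 0.03). There 48 summits in the shorter Oct4 list stood against 56 in the longer Oct4BiD list. The fibronectin and elastic fibre group was at -0.45 (-1.10 to 0.21) for Sox2 and at 0.27 (-0.30 to 0.83) for Nr5a2.

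Single matrix genes rarely differed by 2-fold between forms. Genes with at least 10 summits in the pair were compared. For Nanog, 0 of 31 matrix genes were 2-fold higher in NanogBiD and 0 were 2-fold lower, where 2.8% and 0.697% of 9326 protein-coding genes were. For Oct4, 1 of 27 was higher in Oct4BiD and 0 were lower, against 6.64% and 2.55% of 8996 genes. For Sox2, 2 of 27 were higher in Sox2BiD and 0 lower, against 14.4% and 1.69% of 9684 genes. For Nr5a2, 0 of 26 were higher in Nr5a2BiD and 0 lower, against 0.267% and 2.3% of 14224 genes. These counts are close to what the shares over all genes would give, and in Sox2 the higher calls were 7.41% against 14.4%.

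The gene higher in Oct4BiD was Col1a2, with 3 summits in Oct4 and 11 in Oct4BiD, 2.14-fold per 10000 peaks (0.565 to 11.9). In Sox2BiD it was Mmp14, with 1 and 9 summits, 4.34-fold (0.601 to 190.3), and Postn, with 2 and 9, 2.17-fold (0.449 to 20.6). All 3 intervals include 1, and none of the 3 genes kept this direction in every factor. Col1a2 had 9 summits in Sox2 and 14 in Sox2BiD, 0.750-fold, and Postn had 6 in each Oct4 form, 0.583-fold. Mmp14 had 12 in Nr5a2 and 5 in Nr5a2BiD, 0.591-fold.

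**Figure D4:**
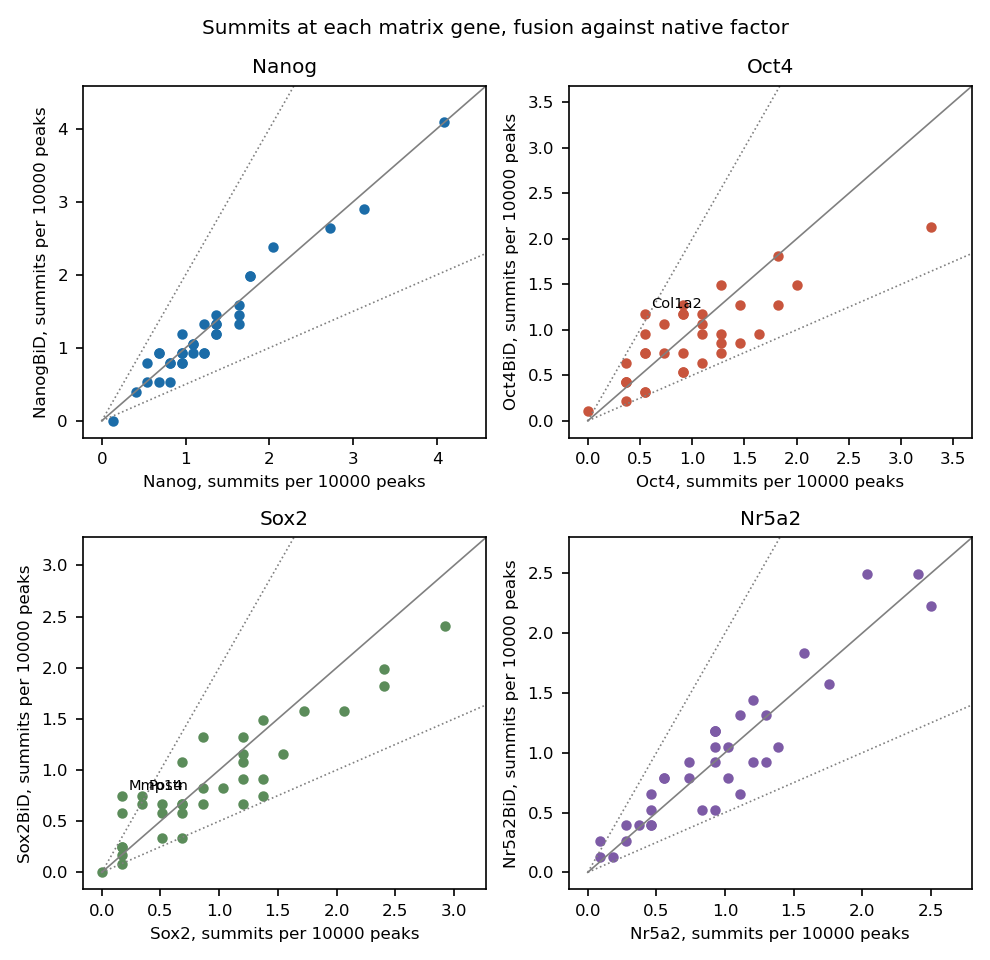
Summits per 10000 peaks at each of the 35 matrix genes in the native library (x axis) and the BiD library (y axis) of the same factor, 1 panel per factor. The solid line marks equality and the dotted lines 2-fold, and the genes with at least 10 summits past 2-fold are named. Points follow the solid line in each panel, most closely for Nanog.

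Sites were kept between forms at the matrix genes at least as often as elsewhere. Of the matrix peaks of Nanog, 83.0% (78.4 to 87.0) overlapped a NanogBiD peak, against 77.1% in all protein-coding windows. In the other direction it was 81.2% (76.5 to 85.4) against 70.2%. The shares were 79.0% in Oct4 and 52.4% in Oct4BiD against 76.9% and 43.9%, 90.9% in Sox2 and 47.4% in Sox2BiD against 89.1% and 40.5%, and 66.4% in Nr5a2 and 91.9% in Nr5a2BiD against 61.1% and 88.3%. The matrix share was the higher in each of the 8 libraries. Its interval lay above the protein-coding share in 4 of them, Nanog, NanogBiD, Oct4BiD and Sox2BiD, and included it in native Oct4, native Sox2 and both Nr5a2 libraries. The longer list of a pair has the lower share in each case.

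Contrasts between factors were counted next. The rule set no minimum fold, so its counts cannot be ranked against the 2-fold counts between forms. A gene was counted for a factor when both of its libraries lay above, or both below, the other 6 in summits per 10000 peaks. The 34 matrix genes and 17052 protein-coding genes with at least 20 summits over the 8 libraries were examined. This comparison was added after the values were seen, and no test was made. Both Nr5a2 libraries lay below the other 6 at 11 matrix genes (32.4%), against 7.22% of all genes. These were Col1a2, Col3a1, Col5a2, Col11a1, Col8a1, Col12a1, Fn1, Thbs1, Dcn, Lum and Vcan. They lay above at 6 (17.6%), Col5a1, Col6a3, Fbln2, Eln, Loxl1 and Bgn, against 30% of all genes. The low side thus held 4 of the 6 fibrillar collagens and 3 of the 4 proteoglycans, and the high side the remaining proteoglycan, Bgn, with Col5a1, Col6a3 and Loxl1. On the low side, Dcn and Lum share part of their windows, and those of Col3a1 and Col5a2 lie close together on the same chromosome. Neither pair of genes gives fully separate cases. The fibronectin and elastic fibre group was divided, with Fn1 low, Eln and Fbln2 high, and Fbn1 and Fbln5 on neither side.

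Both Nanog libraries lay above the other 6 at 9 matrix genes (26.5%), against 6.01% of all genes, and below at 0, against 4.96%. The 9 were Col5a2, Col11a1, Col4a1, Col4a2, Col6a2, Fbn1, Dcn, Timp2 and Timp3. At these genes the mean of the Nanog pair was between 1.27 (Col4a2) and 1.95 (Dcn) times that of the other 6. Some margins were narrow. Per 10000 peaks, Col6a2 had 0.792 summits in NanogBiD and 0.787 in Nr5a2BiD, and Timp2 had 1.32 in NanogBiD and 1.30 in Nr5a2. Col4a1 and Col4a2 share much of their windows and are not separate cases. The Oct4 pair lay above at 0, against 5.67%, and below at 4 (Col4a1, Col6a3, Fbn1 and Tnc), against 5.94%. The Sox2 pair lay above at 0, against 4.02%, and below at 6 (Col1a1, Col6a2, Eln, Loxl1, Bgn and Timp3), 17.6% against 14.7%.

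The sizes of the Nr5a2 contrasts were as follows. At Lum, a small leucine-rich proteoglycan, the mean of the other 6 libraries was 8.16 times that of the Nr5a2 pair, with 1 summit in each Nr5a2 form and 4 to 9 elsewhere. At Dcn it was 4.69 times and at Col11a1 4.03 times. At Eln the Nr5a2 pair was 3.42 times the mean of the others, and at Fbln2 2.66 times, with 13 and 11 summits against 2 to 6. The ratio moved with base composition. The GC content of the windows had a median of 44.7% at matrix genes and 44.2% at protein-coding genes. It was 35.8% to 44.5% at the 11 low genes and 46.7% to 51.3% at the 6 high genes. Across the 34 genes, window GC and the log2 of the Nr5a2 mean over the mean of the other 6 had Pearson's r of 0.86 and Spearman's rho of 0.86. The points share the same libraries, and genes are not independent replicates. Across 17029 protein-coding genes r was 0.63.

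Within classes of GC the matrix genes did not all follow the other genes. Of 15 matrix genes under 44% GC, 10 (66.7%) had both Nr5a2 libraries below the other 6, against 17.7% of 6308 protein-coding genes in that class. Of 13 matrix genes at or over 47% GC, 5 (38.5%) had both above, against 55.7% of 6290. Of the 6 matrix genes between these cuts, 1 (16.7%) had both below, against 2.42% of 4454, and 1 (16.7%) had both above, against 26.2%. The classes were not matched for the number of summits per gene. The part that base composition, summit number, gene neighbours or list length plays in these differences was not tested.

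**Figure D5:**
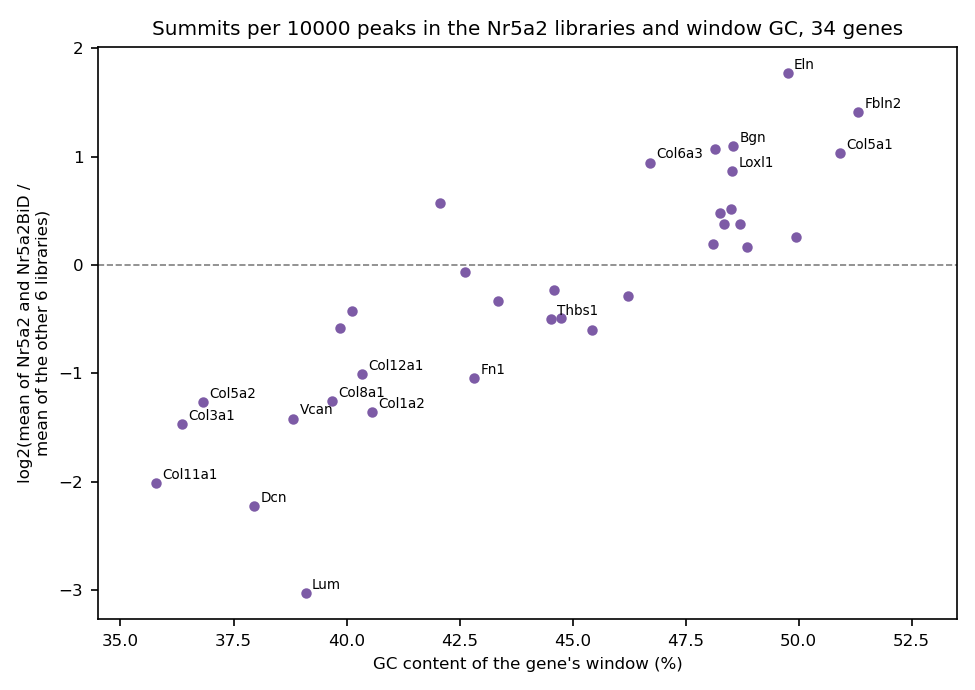
Log2 of the mean of the 2 Nr5a2 libraries over the mean of the other 6, in summits per 10000 peaks (y axis), against the GC content of the window in percent (x axis), for the 34 matrix genes with at least 20 summits. Genes with both Nr5a2 libraries above or below the other 6 are named. The 11 low genes lie at 35.8% to 44.5% GC and the 6 high genes at 46.7% to 51.3%.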

How the data were processed

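Flag CUT&Tag libraries of MEFs at day 3 were analysed from 1 deposited peak list and 1 summit list per library. Per the methods and processing notes, the authors used Trim Galore 0.6.4 for trimming and Bowtie2 2.4.5 for mapping to mm10, removed repetitive, low-quality and mitochondrial reads with SAMtools 1.16.1, and called peaks with MACS 1.4.2 without a control, after merging replicates. The study's reporting summary, however, names a single CUT&Tag experiment. Deposited peak scores are the caller's p-value as -10 times its log10, and 50 was the lowest. Heights in the deposited summit lists are signal in tags, with no scaling to depth by the authors.

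Summits were counted in windows from GENCODE M21 (GRCm38) in Python 3.11.15 (SciPy 1.17.1, NumPy 2.4.6, pandas 2.3.3, and matplotlib 3.10.9 for figures). The counting, merging and fold rules were tested on simulated data. Sequences came from the RefSeq GRCm38 assembly. A fold used a count of 3 in place of 0. With 1 library per group no test was made. Intervals are exact Poisson, Clopper-Pearson or conditional binomial intervals at 95% and cover counting error only, since peaks of a library are neither independent molecules nor replicates. Every matrix gene was accounted for. Values per library were printed for genes with the most or fewest summits per Mb overall (3 each) and in each role group (1 each), for promoters reached in all 8 libraries or none, and for the largest change past 2-fold. Alternatives changed the window, score cutoff, promoter distance, merging, motif distance and fold. The members and gene lists were chosen with earlier results of these data known.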

Additional observations from a re-analysis of the deposited data

Results flagged for a closer look

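The log2 ratio of matrix summits per 10000 peaks, fusion over native, had a different sign for 1 factor. It was 0.015 with Nr5a2BiD, while it was -0.04 with NanogBiD, -0.15 with Oct4BiD and -0.10 with Sox2BiD. The difference in sign was not tested, and all 4 intervals include 0.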

How the results depend on the processing

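The log2 ratios of fusion over native for each factor and their mean stayed within the intervals of the reported values in all 44 recalculations, between -0.26 and 0.09. The median density ratio of 1.61 ranged from 1.56 to 1.84, the latter with all annotated genes as comparison. Leaving out Loxl2, or the 12 genes with a neighbour's start site in the window, both chosen after seeing the data, moved no log2 ratio and no median over the libraries beyond its interval. Without those 12 genes the density ratio fell just below its interval in Nanog (1.95), NanogBiD (1.75) and Nr5a2 (1.29). The share of matrix regions with all 4 factors, 8.31%, was 4.97% with scores of at least 100 (4.75% in protein-coding windows), 2.29% with the 20000 highest-scoring peaks (1.73%) and 1.68% with chained summits (1.99%), so that its excess over protein-coding windows was not kept at the higher score or with chaining. The median promoter share of 21.2% was 11.8% within 500 bp and 12.8% with the gene's own start sites. The median AP-1 share of 7.21% was 3.70% within 25 bp and 12.3% within 100 bp, and the median percentile of 51.1 was 57.9 when ranked by height. With a fold of 1.5, the matrix genes past it were 1 lower in NanogBiD, 2 higher and 8 lower in Oct4BiD, 5 higher and 3 lower in Sox2BiD, and 3 lower in Nr5a2BiD. With at least 20 summits, 0 were past 2-fold in Oct4BiD and Sox2BiD. Shares over all protein-coding genes were not calculated at these settings, so these counts cannot be read as a result about the matrix genes. Values of single libraries moved past their intervals in 51 of 192 recalculations, as the window, distance or cutoff defines what is counted. These include the Nanog, NanogBiD and Nr5a2 density ratios given above. Fusion and native libraries were compared in pairs by factor, as 4 log2 ratios and their mean, without a test. By replicate number, no paired analysis was possible because each group holds 1 library. Read totals were not used, so scores and heights were compared within lists only.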
